A study of Homo sapiens with 15 samples.

Results

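The 51 genes described here are interferon-stimulated genes, chosen by gene symbol from a list of known members with earlier results of these data known. They were 51 of the 17360 gene symbols that carry a value in either of 2 RNA sequencing experiments on A375, a BRAF-mutant line established from a human melanoma. By role they comprised 5 transcription factors, 5 RNA and DNA sensors, 6 enzymes that bind or edit double-stranded RNA, 16 antiviral effectors, 10 genes of the ISG15, ubiquitin and PARP group and 9 others. Genes of antigen presentation were left out of the list. In the first experiment A375 cells carrying an empty vector were given vehicle, and A375 cells overexpressing VAV1 were given either vehicle or saracatinib, which blocks SRC family kinases. VAV1 loads RAC GTPases with GTP and is normally expressed mainly in blood cells. In the second experiment A375 cells carrying an empty vector or RAC1P29S, an activated form of RAC1 that recurs in melanoma, were left untreated. Each of the 5 groups held 3 libraries. All cells were grown in the same serum-containing medium, and no label names an added interferon. The labels give neither dose nor time nor the promoter of any vector, and no group combined the empty vector with saracatinib. Cultures of a group are called biological triplicates with nothing on whether they came from separate transductions, so a p-value reflects only how these cultures varied. The genotype entry of the RAC1P29S samples reads empty vector, while their titles read RAC1P29S. They were grouped by title.

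Type I interferons bind a receptor made of IFNAR1 and IFNAR2, whose kinases JAK1 and TYK2 phosphorylate STAT proteins. A complex that holds STAT2 and IRF9 then binds the interferon-stimulated response element in target promoters, while STAT dimers formed after interferon gamma bind the gamma-activated site. Many targets are antiviral effectors, others (the sensors and IRF7) raise further interferon production, and some (ISG15, USP18) tune the response. Tumour cells often keep a low tonic level of these transcripts without added interferon, in part through their own nucleic acid sensors.

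Promoter sequences were available for 42 of the 51 genes in a RefSeq table on GRCh38.p14, which covers 250 bases before to 50 bases after each transcription start, with DDX58 matched under its newer symbol RIGI. OAS2, USP18, IRF7, IRF2, IFITM2, MX2, DHX58, IFIT2 and OASL were not matched. Both strands were searched for the core of the interferon-stimulated response element, spelled GAAA, any 2 bases, GAAA, and for the gamma-activated site, TTCNNNGAA. The first motif was found in 27 of 42 members (64.3%) in at least 1 of their promoters, against 1195 of all 27305 genes in the table (4.38%) counted the same way. Counted by promoter, it was in 1255 of 35116 (3.57%). The second was found in 12 of 42 members (28.6%) and in 9.38% of all genes (7.66% of promoters). Matches of the first motif were most frequent among the effectors, at 11 of 13, and were found in 0 of the 3 transcription factors with a promoter in the table. Stretches around matches are shown for 8 members whose transcripts differ in the ways described below. They read 5′ to 3′ on the strand of the gene, on GRCh38.p14. Capitals mark the matches of the motif named on each line only, with overlapping matches run together. A match of the response element core on the other strand reads TTTC, any 2 bases, TTTC.
ISG15, chr1:1013333-1013422, + strand, response element core: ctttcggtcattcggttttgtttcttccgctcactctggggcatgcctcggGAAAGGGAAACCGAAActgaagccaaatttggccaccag
IFIT1, chr10:89392456-89392545, + strand, response element core: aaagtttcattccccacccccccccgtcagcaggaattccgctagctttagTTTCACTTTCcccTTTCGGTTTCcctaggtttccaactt
IFIT3, chr10:89327804-89327893, + strand, response element core: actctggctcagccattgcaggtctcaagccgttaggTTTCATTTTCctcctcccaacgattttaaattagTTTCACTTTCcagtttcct
SAMD9, chr7:93118066-93118155, - strand, response element core: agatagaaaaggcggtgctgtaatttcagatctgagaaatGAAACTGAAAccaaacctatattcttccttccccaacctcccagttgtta
ISG20, chr15:88638937-88638966, + strand, response element core: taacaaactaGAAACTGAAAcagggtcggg
BST2, chr19:17405741-17405770, - strand, response element core: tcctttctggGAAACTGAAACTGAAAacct
IRF9, chr14:24161191-24161220, + strand, gamma-activated site: gaccacgtgatTTCTGGGAAaaggccctcc
IRF1, chr5:132490849-132490938, - strand, gamma-activated site: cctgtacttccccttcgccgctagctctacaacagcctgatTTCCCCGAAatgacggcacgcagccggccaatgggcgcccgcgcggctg
The first 4 of these genes were among those higher in VAV1 cells with saracatinib than in control cells, ISG20 and BST2 fell with VAV1 and rose with saracatinib, and IRF9 and IRF1 are transcription factors that moved in different directions with VAV1. Distances are counted from the RefSeq start, which can lie inside a longer gene span in another annotation. In ISG15 the 2 matches overlapped and began 107 and 113 bases before the start. In BST2 they lay 124 and 130 bases before it. A match describes the letters in these windows and is not evidence of a bound factor.

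Values are the deposited log2 of a normalized count plus 1, and each library summed to 14443918 to 16262759 normalized counts. The labels were checked on the overexpressed genes. VAV1 lay at 1.90, 2.49 and 2.28 in empty vector cells, at 13.93, 13.86 and 13.94 in VAV1 cells with vehicle and at 14.10, 14.16 and 14.11 with saracatinib. RAC1 lay at 11.87, 11.90 and 11.88 in the untreated control and at 14.95, 14.89 and 14.95 in the cells titled RAC1P29S. Of the melanocytic markers, SOX10 ranged from 10.8 to 13.3 over all libraries, with S100A1, S100B and MITF also present, while MLANA stayed at 4.45 or below and PMEL at 5.49 or below. The summed melanocytic markers were 8995 to 9515 normalized counts in empty vector cells, 2998 to 3133 with VAV1, 3589 to 3731 with VAV1 and saracatinib, 11230 to 12250 in untreated controls and 5407 to 5815 with RAC1P29S. SOX10, S100A1 and S100B fell with VAV1 and RAC1P29S, while MITF rose, by 1.57 ± 0.11 and 1.23 ± 0.11. Summed haematopoietic markers were 705.5 to 753.2, 1172 to 1224, 2451 to 2684, 405.5 to 482.3 and 937.6 to 1039 in the same order, of which CD68 and LYZ were 2 of 7 markers high enough to test. CD3E, CD8A and NKG7 were not listed, CD14 was at 3.13 or below, and PTPRC, which defines blood cells, stayed at 4.50 or below. CD68 was higher in each comparison with a control, with log2 fold changes of 1.21 for VAV1, 1.11 for saracatinib and 1.45 for RAC1P29S, while LYZ was lower with VAV1 and RAC1P29S, at -2.11 ± 0.14 and -0.89 ± 0.16, and higher with saracatinib, at 0.69 ± 0.14. Epithelial marker sums, carried by KRT18, were 5138 to 5865, 11140 to 12130, 6914 to 7283, 2810 to 3232 and 5475 to 6103, whereas KRT14, the other epithelial marker tested, was lower with VAV1 (-1.28 ± 0.21) and RAC1P29S (-0.47 ± 0.12). Fibroblast sums lay between 123 and 470.5 and endothelial sums between 42.26 and 116.1 in all libraries. The part of these marker changes in the results below was not tested. In bulk RNA, fewer cells of a type and less RNA per cell cannot be told apart.

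The share of all normalized counts taken by the 51 genes was 0.232% to 0.237% in empty vector cells with vehicle and 0.234% to 0.237% in VAV1 cells with vehicle, so these groups overlapped. With saracatinib it was 0.273% to 0.282%, above all 6 other libraries of that experiment. Such a share weighs abundant members most, and LGALS3BP alone held 7297 to 9559 normalized counts per library there. In the untreated experiment, which was scaled by itself, the share was 0.189% to 0.192% in controls and 0.187% to 0.190% in RAC1P29S cells. Of the 51 genes, 49 passed the filter on low values in the first experiment and 48 in the second. RSAD2, which encodes viperin, and IFI27 were too low in every group, and BST2 was too low in the untreated experiment. RSAD2 was listed at 0 to 2.37 in the first experiment and not listed in the second, and IFI27 at 0 to 3.56 over both. Calls below are limma calls at an adjusted p under 0.05 over all genes tested. Since the list was chosen with earlier results of these data known, the shares of members called only describe these genes. The 3 comparisons of the first experiment share libraries pairwise, so their values are given side by side only.

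**Figure D1:**
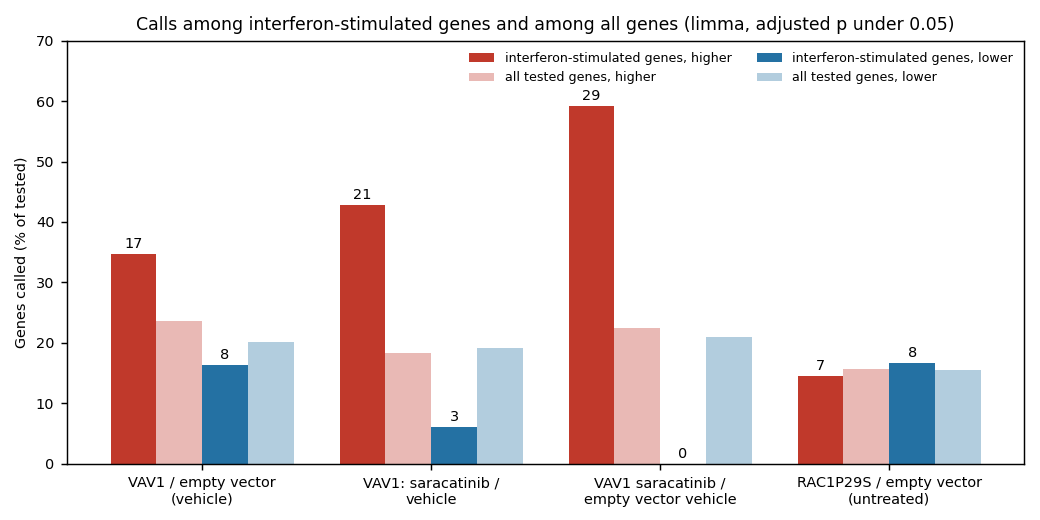
Percent of tested interferon-stimulated genes and of all tested genes called higher or lower (y axis) in 4 comparisons (x axis), with the number of interferon-stimulated genes called above each dark bar. The members called higher took 34.7%, 42.9% and 59.2% of those tested in the 3 comparisons of the VAV1 experiment, against 23.6%, 18.3% and 22.4% of all genes, and 14.6% against 15.6% for RAC1P29S.

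With VAV1 the interferon-stimulated genes split. OASL, IFIT2, IFI44L, IFI44, IFIT3, HERC6, SAMD9, OAS2, IFIT5, DDX60, ISG15 and EIF2AK2 rose, and ISG20, BST2, IFI35, DHX58, STAT2, IRF9, UBE2L6 and IFI16 fell, with IRF1, TRIM25, PLSCR1, OAS3 and DTX3L the remaining genes that rose. In all 17 of 49 tested members were higher (34.7%), against 23.6% of the 14410 genes tested, and 8 were lower (16.3%), against 20.1%, so that 25 were called in either direction, against 43.7%. The median log2 fold change of the members was 0.15, against 0.02 for all tested genes. The members that rose were effectors (5 of 15), double-stranded RNA enzymes (4 of 6), genes of the ISG15 group (4 of 10), others (2 of 8), 1 of 5 sensors and 1 of 5 transcription factors. Both the transcription factors and the sensors had 2 of 5 members lower, as had 2 of 15 effectors, 1 of 10 of the ISG15 group and 1 of 8 others. No overlap between the libraries compared was seen for 18 members higher and 10 lower, against 28.2% and 24.5% of all genes. When single libraries were left out, DDX60 lost its call without empty vector 1 or 3, VAV1 vehicle 1 or 2 or saracatinib 1 or 3 (adjusted p up to 0.171) and DHX58 without empty vector 1 or 2 or VAV1 vehicle 2 or 3 (adjusted p up to 0.0998). DTX3L lost its call without empty vector 1 or 3 or VAV1 vehicle 3 (adjusted p up to 0.0596) and IFI16 without empty vector 2 or 3 or VAV1 vehicle 1, 2 or 3 (adjusted p up to 0.128). IRF9 lost its call without empty vector 1 or 2 or VAV1 vehicle 1 or 2 (adjusted p up to 0.0867) and ISG15 without VAV1 vehicle 3 (adjusted p 0.0586). OAS2 lost its call without VAV1 vehicle 3 (adjusted p 0.0614) and UBE2L6 without any of the 9 libraries (adjusted p up to 0.162). The numbers after a group name are its library numbers. DDX60 also lost its call under median-of-ratios and upper-quartile scaling, and DDX60, IFI16 and UBE2L6 with only the compared groups in the fit. IRF9 lost it under quantile normalization (adjusted p 0.0642) and UBE2L6 without the filter.

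Saracatinib in VAV1 cells moved most called members up. ISG20, BST2, IRF9, IFI35, PARP9, IFIH1, IFIT1, IFITM3, OAS1, IFI6, IFI16 and STAT2 had the 12 largest increases among the members called, and ISG15, IFIT3, IFITM2, IFIT2, PARP14, USP18, UBE2L6, LGALS3BP and DTX3L also rose. The 3 that fell, EIF2AK2, OAS3 and ADAR, all belong to the double-stranded RNA enzymes. In all 21 of 49 members were higher (42.9%), against 18.3% of all genes tested, and 3 were lower (6.12%), against 19.1%, and 24 were called in either direction, against 37.3%. The median was 0.30, against -0.01 for all genes. By role, 7 of 15 effectors, 6 of 10 of the ISG15 group, 3 of 8 others, 2 of 5 transcription factors, 2 of 5 sensors and 1 of 6 double-stranded RNA enzymes were higher. The libraries did not overlap for 24 members higher and 5 lower, against 24.1% and 25.3% of all genes. On leaving out 1 library at a time, ADAR lost its call without VAV1 vehicle 2 or saracatinib 1 or 2 (adjusted p up to 0.0797) and IFIT1 without VAV1 vehicle 1 or saracatinib 2 or 3 (adjusted p up to 0.0761). IFIT2 lost its call without VAV1 vehicle 2 or 3 or saracatinib 1, 2 or 3 (adjusted p up to 0.119) and ISG15 without VAV1 vehicle 1 or 2 or saracatinib 1 or 2 (adjusted p up to 0.0976). OAS1 lost its call without VAV1 vehicle 3 or saracatinib 1 or 3 (adjusted p up to 0.166) and USP18 without empty vector 3, VAV1 vehicle 2 or 3 or saracatinib 1, 2 or 3 (adjusted p up to 0.155). Quantile normalization ended the calls of ADAR (adjusted p 0.477), IFIT2 (0.0609), OAS1 (0.0642) and USP18.

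VAV1 cells with saracatinib stood above empty vector cells with vehicle for most of the list. Of 49 members 29 were higher (59.2%), against 22.4% of all genes, and limma called 0 lower, against 21.0% (43.4% of all genes in either direction). The median was 0.43, against 0.004 for all genes. The largest changes were in OASL at 2.43 ± 0.53, IFIT2 at 1.68 ± 0.14, IFIT3 at 1.30 ± 0.11 and ISG15 at 1.03 ± 0.15 on the log2 scale. HERC6, IFIT1, OAS2, IFI44L, IFIH1, IFI44, IRF9 and SAMD9 followed, at 0.64 to 0.95. Higher members made up 4 of 5 sensors, 8 of 10 of the ISG15 group, 8 of 15 effectors, 3 of 6 double-stranded RNA enzymes, 4 of 8 others and 2 of 5 transcription factors. Libraries did not overlap for 32 members higher and 1 lower (OAS3, not called), against 27.2% and 25.6% of all genes. This comparison differs in both the vector and the drug, which cannot be told apart in it. With 1 library left out, DDX58 lost its call without empty vector 3 or saracatinib 1, 2 or 3 (adjusted p up to 0.137) and DDX60 without empty vector 1 or saracatinib 1 or 3 (adjusted p up to 0.106). EIF2AK2 lost its call without empty vector 2 or 3 or saracatinib 3 (adjusted p up to 0.145) and IFI44L without empty vector 1 or 2 or saracatinib 1 or 2 (adjusted p up to 0.124). IFI6 lost its call without empty vector 2 or 3 or saracatinib 1, 2 or 3 (adjusted p up to 0.132) and IRF1 without saracatinib 2 (adjusted p 0.0542). LGALS3BP lost its call without empty vector 2 or saracatinib 3 (adjusted p up to 0.0637) and PLSCR1 without empty vector 1 or 3, VAV1 vehicle 3 or saracatinib 1, 2 or 3 (adjusted p up to 0.14). The value of EIF2AK2 without saracatinib library 3 was 0.12, and that of LGALS3BP without empty vector library 2 was 0.12. Without saracatinib library 3, limma called 1 member lower, ADAR. Quantile normalization ended the calls of DDX58 (adjusted p 0.051), IFI44L and PLSCR1, a fit of the compared groups alone those of IFI44L and PLSCR1, and upper-quartile scaling that of PLSCR1. With a pseudocount of 16 the log2 value was 1.36 for OASL and 0.52 for IFI44L.

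RAC1P29S changed the list about as often as it changed any gene. Of 48 tested members 7 were higher (14.6%), against 15.6% of the 14036 genes tested, and 8 were lower (16.7%), against 15.5%, together 15 against 31.1%. OASL, IFITM2, ISG15, IFIT2, IFI44, SAMD9 and PLSCR1 rose, and RTP4, ISG20, IFI35, CMPK2, OAS1, PARP9, UBE2L6 and DTX3L fell. The median was -0.04, against -0.004 for all genes. Limma called 0 of 5 transcription factors and 0 of 5 sensors in either direction, and at an unadjusted p under 0.05 STAT2, DHX58 and IFI16 were lower. Groups did not overlap for 11 members higher and 13 lower, against 22.6% and 22.4% of all genes. Leaving out 1 library at a time, CMPK2 lost its call without control 1 or 3 or RAC1P29S 1 (adjusted p up to 0.0759) and DTX3L without any of the 6 libraries (adjusted p up to 0.155). PARP9 lost its call without control 1 or 3 or RAC1P29S 1, 2 or 3 (adjusted p up to 0.088) and PLSCR1 without control 1 or 2 or RAC1P29S 2 or 3 (adjusted p up to 0.139). RTP4 lost its call without control 1, 2 or 3 or RAC1P29S 1 or 3 (adjusted p up to 0.148) and SAMD9 without control 1 or 2 or RAC1P29S 1 or 2 (adjusted p up to 0.147). The lower members numbered 4 without control 1, 4 without RAC1P29S 1 and 5 without RAC1P29S 3, and the higher members 4 without RAC1P29S 2. DTX3L also lost its call under upper-quartile scaling, quantile normalization and without the filter, and RTP4 under median-of-ratios and upper-quartile scaling.

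**Figure D2:**
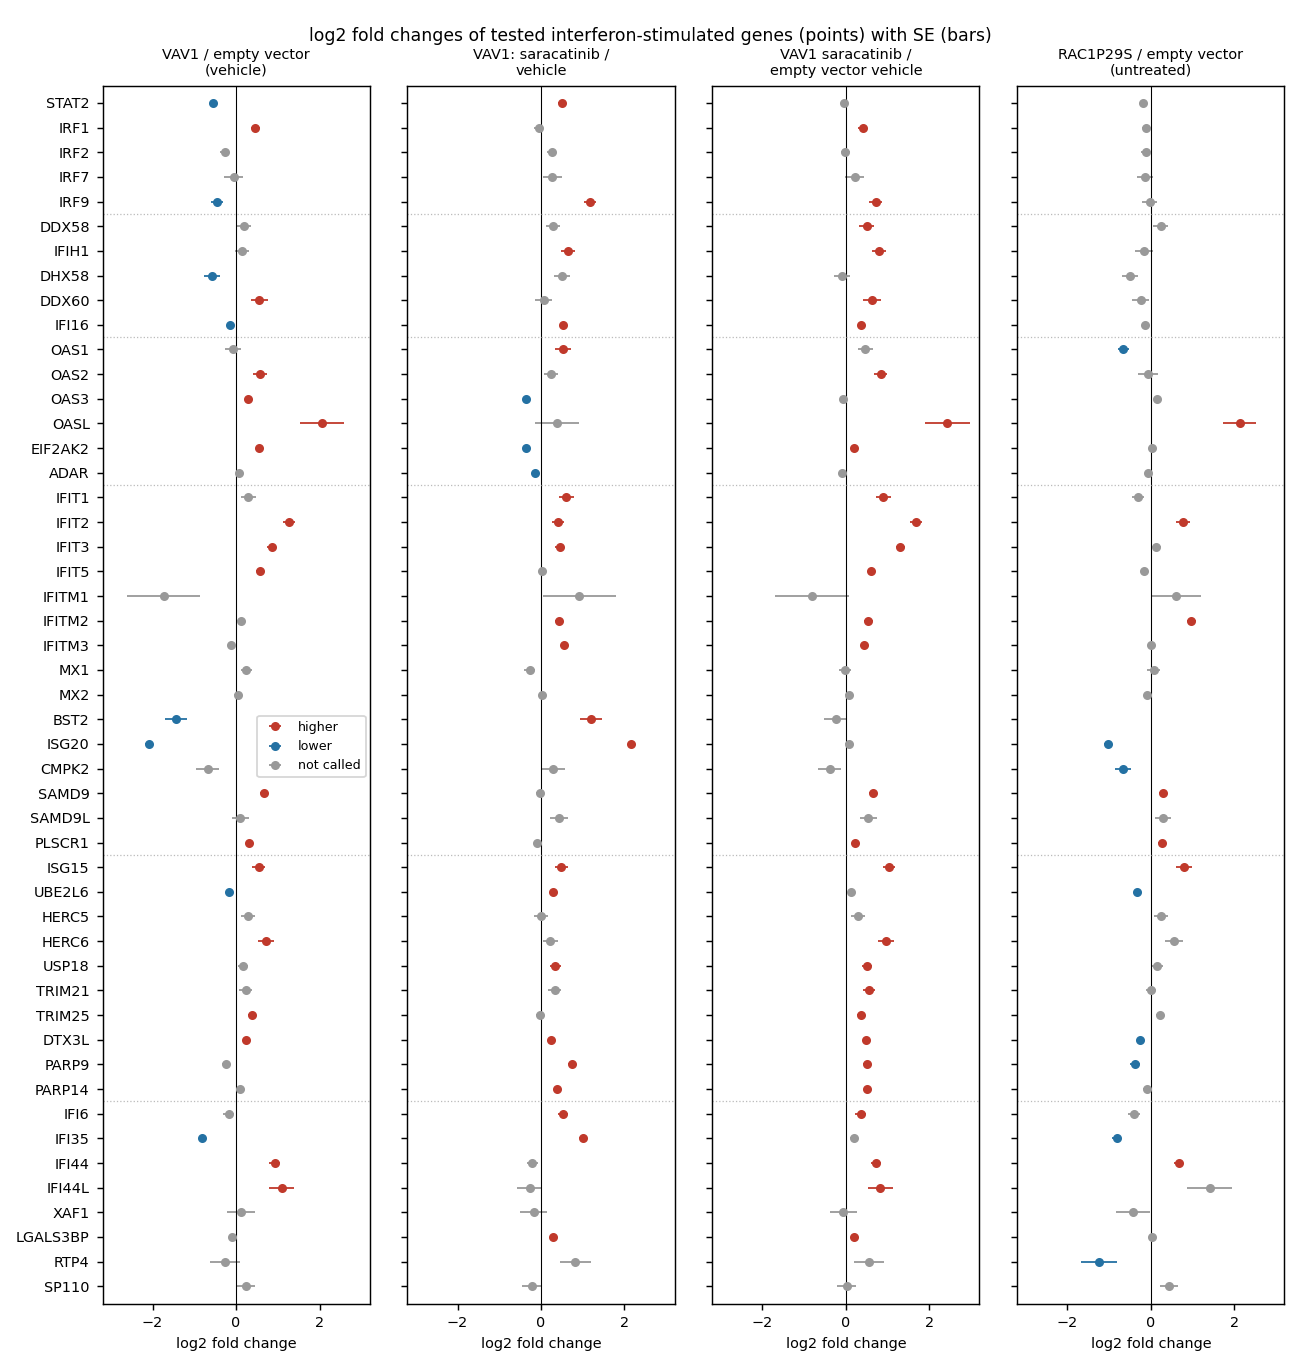
log2 fold change (x axis) of each tested interferon-stimulated gene (y axis, grouped by role with dotted lines) in 4 comparisons; points are estimates, bars SE, and colour gives the limma call. In the third panel 29 genes are called higher and 0 lower, while ISG20, near -2.09 in the first panel and 2.16 in the second, is near 0.07 in the third.

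Among the transcription factors, STAT2 and IRF9, the partners in the complex that binds the interferon-stimulated response element, moved the same way with each perturbation of the first experiment. STAT2 lay at 9.33, 9.48 and 9.42 in empty vector cells, 8.79, 8.92 and 8.90 with VAV1 and 9.45, 9.36 and 9.29 with VAV1 and saracatinib. The VAV1 libraries were the 3 lowest, and the saracatinib libraries overlapped the control. Its log2 fold change was -0.54 ± 0.08 (SE, n = 3 per group) with VAV1, adjusted p 7.54e-05 by limma, and 0.50 ± 0.08 with saracatinib, adjusted p 0.000208. In the untreated experiment STAT2 lay at 8.98, 8.98 and 9.03 in controls and 8.73, 8.89 and 8.81 in RAC1P29S cells, groups that did not overlap but whose difference of -0.18 ± 0.08 was not called (adjusted p 0.108). IRF9 lay at 6.97, 7.08 and 6.83, then 6.43, 6.42 and 6.67 with VAV1 and 7.66, 7.94 and 7.44 with saracatinib. Here the saracatinib libraries were above all others, and the VAV1 libraries were below. The log2 fold change was -0.46 ± 0.15 with VAV1 (adjusted p 0.0281), 1.17 ± 0.15 with saracatinib (adjusted p 5.24e-05) and 0.72 ± 0.15 between VAV1 cells with saracatinib and empty vector cells (adjusted p 0.00206). Untreated, it lay at 6.94, 6.98 and 6.44 in controls and 6.62, 6.94 and 6.73 in RAC1P29S cells, which overlapped (-0.02 ± 0.18, adjusted p 0.938).

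IRF1, a factor induced early by interferon gamma, went the other way from STAT2 and IRF9 with VAV1. It lay at 7.59, 7.47 and 7.63 in empty vector cells and 8.10, 8.04 and 7.92 in VAV1 cells, without overlap, and at 7.80, 8.12 and 7.98 with saracatinib. The log2 fold change with VAV1 was 0.46 ± 0.11 (adjusted p 0.00472) and that of saracatinib -0.06 ± 0.11 (adjusted p 0.716). With RAC1P29S it was -0.11 ± 0.11 (adjusted p 0.467). IRF2, which opposes IRF1 at shared sites, and IRF7, which drives interferon alpha transcription, were not called in any of the 4 comparisons. IRF2 had -0.27 ± 0.11 with VAV1 (adjusted p 0.0596), 0.26 ± 0.11 with saracatinib (adjusted p 0.0775), -0.01 ± 0.11 with both and -0.11 ± 0.12 with RAC1P29S. IRF7, at 4.94 to 5.57 in the first experiment and 5.84 to 6.39 in the second, had -0.06 ± 0.23, 0.28 ± 0.23, 0.22 ± 0.23 and -0.14 ± 0.19 in the same order.

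Of the sensors, IFI16, which binds DNA, and DHX58 (LGP2), a regulator of the RNA sensors, fell with VAV1. IFI16 lay at 10.64, 10.76 and 10.66 in empty vector cells, 10.57, 10.49 and 10.56 with VAV1 and 11.11, 10.99 and 11.06 with saracatinib, 3 groups without overlap. Its log2 fold changes were -0.15 ± 0.05 with VAV1 (adjusted p 0.0381) and 0.52 ± 0.05 with saracatinib (adjusted p 7.87e-06). Without treatment it lay at 10.69, 10.63 and 10.52 in controls and 10.47, 10.41 and 10.52 in RAC1P29S cells, a difference of -0.14 ± 0.06 that was not called (adjusted p 0.116). IFIH1 (MDA5), a sensor of long double-stranded RNA, rose with saracatinib, from 6.24, 6.07 and 6.13 to 6.82, 6.90 and 6.65, without overlap. That was a log2 change of 0.64 ± 0.17 (adjusted p 0.00971), while VAV1 alone gave 0.15 ± 0.17 and RAC1P29S -0.16 ± 0.22, neither called. DDX60, a helicase that acts with these sensors, rose with VAV1 by 0.56 ± 0.21 (adjusted p 0.0443), although 1 VAV1 library at 6.23 lay within the control range. DHX58 changed by -0.58 ± 0.19 with VAV1 (adjusted p 0.0261). DDX58 (RIG-I), which detects short double-stranded RNA with triphosphate ends, was called only between VAV1 with saracatinib and empty vector, at 0.49 ± 0.17 (adjusted p 0.0323).

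Of the 6 double-stranded RNA enzymes 4 rose with VAV1, and 3 fell with saracatinib. EIF2AK2 encodes PKR, a kinase that halts translation when bound to double-stranded RNA. It lay at 10.70, 10.58 and 10.59 in empty vector cells, 11.23, 11.14 and 11.13 with VAV1 and 10.76, 10.73 and 10.94 with saracatinib, so the 3 groups did not overlap. The log2 fold changes were 0.54 ± 0.06 (adjusted p 1.36e-05) and -0.36 ± 0.06 (adjusted p 0.000629). RAC1P29S gave 0.04 ± 0.07 (adjusted p 0.704), with 10.46, 10.41 and 10.63 in controls and 10.51, 10.51 and 10.60 in RAC1P29S cells. OAS3, an oligoadenylate synthetase that activates RNase L, rose and fell in the same comparisons, with 10.37, 10.38 and 10.41, 10.62, 10.59 and 10.79 and 10.31, 10.28 and 10.35, and its saracatinib libraries lay below both other groups. In the untreated experiment it lay at 10.56, 10.58 and 10.41 in controls and 10.63, 10.68 and 10.69 in RAC1P29S cells, without overlap. Its log2 fold changes were 0.28 ± 0.06 with VAV1 (adjusted p 0.00203), -0.35 ± 0.06 with saracatinib (adjusted p 0.000482) and 0.15 ± 0.06 with RAC1P29S (adjusted p 0.101). ADAR, which edits adenosine to inosine in double-stranded RNA, fell with saracatinib by 0.15 on the log2 scale (adjusted p 0.0185).

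OASL, a catalytically inactive relative that binds RIG-I, rose with both VAV1 and RAC1P29S from a low level. It lay at 1.71, 3.96 and 4.09 in empty vector cells, 5.33, 5.17 and 5.43 with VAV1 and 5.18, 6.21 and 5.66 with saracatinib. Among untreated cells it lay at 2.67, 3.26 and 2.03 in controls and 4.55, 4.79 and 4.99 in RAC1P29S cells. No library with VAV1 or RAC1P29S overlapped its control. The log2 fold changes were 2.05 ± 0.53 with VAV1 (adjusted p 0.00777) and 2.13 ± 0.40 with RAC1P29S (adjusted p 0.00262). The VAV1 value rested in part on empty vector library 1, the lowest at 1.71, and without it was 1.28. With a pseudocount of 16 it was 1.06, and the RAC1P29S value 0.98. OAS1 and OAS2, neighbours of OAS3 on chromosome 12, did not share its fall with saracatinib. OAS1 lay at 7.57, 7.43 and 7.12 in empty vector cells and rose with saracatinib, from 7.55, 7.50 and 6.86 to 7.90, 7.62 and 7.998, by 0.53 ± 0.19 (adjusted p 0.0391), and without VAV1 vehicle library 3 the value was 0.31 (adjusted p 0.166). With RAC1P29S it fell from 7.47, 7.60 and 7.40 to 6.95, 6.70 and 6.85, by 0.66 (adjusted p 0.00376). OAS2 rose with VAV1, as OAS3 did, by 0.58 ± 0.17 (adjusted p 0.0115). In VAV1 cells it averaged 7.28 with vehicle and 7.53 with saracatinib, a difference that was not called. The 3 OAS genes span 104.9 kb of chromosome 12 (112906777 to 113011723, GRCh38) and each overlaps an antisense gene there in GENCODE release 29. The strand setting of the counting is not given in the sources used here, so reads of these pairs cannot be told apart.

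Of the antiviral effectors, ISG20, an exonuclease that degrades viral RNA, had the largest opposite changes. It lay at 10.60, 10.31 and 10.55 in empty vector cells, 8.50, 8.37 and 8.30 with VAV1 and 10.49, 10.62 and 10.55 with VAV1 and saracatinib. The VAV1 libraries were the 3 lowest by a wide gap, and the saracatinib libraries overlapped the control. VAV1 changed it by -2.09 ± 0.08 (adjusted p 2.47e-10), a 4.27-fold lower level, and saracatinib by 2.16 ± 0.08 (adjusted p 5.04e-10), a 4.47-fold higher one. Between VAV1 with saracatinib and empty vector the difference was 0.07 ± 0.08 (adjusted p 0.545). RAC1P29S lowered it too, from 9.54, 9.58 and 9.40 to 8.41, 8.37 and 8.67, by 1.02 (adjusted p 2.94e-05). ISG20 lies on chromosome 15 (88636153 to 88656483, + strand), and its stretch shown above, with 1 match of the response element core, lies inside that span, 69 bases before the RefSeq start used in the promoter table. BST2 (tetherin), which holds budding virions at the cell surface, had a like course at a low level, with 5.41, 5.58 and 5.62, 4.39, 3.80 and 4.08 and 5.03, 5.10 and 5.72. The VAV1 libraries were the 3 lowest. The changes were -1.44 ± 0.27 (adjusted p 0.000647) and 1.20 ± 0.27 (adjusted p 0.00314). With a pseudocount of 16 they were -0.93 and 0.75. Among untreated cells BST2 lay at 3.10, 2.31 and 2.64 and 2.61, 3.11 and 2.89, under the filter. With 2 matches of the same motif, its promoter does not differ in this from those of ISG15 or IFIT1. It also holds 2 matches of TTCNNNGAA, against 0 in ISG15 and IFIT1. The one that begins 136 bases before the start lies unmarked in the stretch shown.

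Of the 4 IFIT genes, whose products bind viral RNA caps and ends, IFIT2, IFIT3 and IFIT5 rose with VAV1. IFIT2 lay at 6.65, 6.97 and 6.48 in empty vector cells, 8.13, 7.81 and 7.97 with VAV1 and 8.37, 8.42 and 8.34 with saracatinib, 3 groups without overlap. It rose with VAV1 by 1.27 ± 0.14 (adjusted p 5.68e-06), further with saracatinib by 0.41 ± 0.14 (adjusted p 0.0307), and with RAC1P29S, from 5.74, 6.02 and 5.76 to 6.58, 6.54 and 6.75, by 0.78 ± 0.17 (adjusted p 0.00555). Like IFIT2, ISG15 was called higher in all 3 of these. The share of all genes so called was not counted, and the saracatinib calls of both were lost without some single libraries. IFIT3, the partner that stabilises IFIT1, lay at 7.34, 7.47 and 7.21, 8.12, 8.20 and 8.25 and 8.77, 8.56 and 8.59, also without overlap. Its changes were 0.85 ± 0.11 with VAV1 (adjusted p 2.23e-05), 0.45 ± 0.11 with saracatinib (adjusted p 0.00431) and 0.12 ± 0.12 with RAC1P29S (adjusted p 0.505), where 7.75, 7.77 and 7.48 in controls overlapped 7.88, 7.70 and 7.77. IFIT5 rose with VAV1 by 0.57 ± 0.08 (adjusted p 6.38e-05) and had 0.03 ± 0.08 with saracatinib and -0.16 ± 0.07 with RAC1P29S, not called. IFIT1 rose with saracatinib by 0.60 ± 0.18 (adjusted p 0.0168), and VAV1 alone gave 0.29 ± 0.18, not called. With RAC1P29S, IFIT1 lay at 6.88, 6.80 and 6.79 in controls and 6.63, 6.54 and 6.40 in RAC1P29S cells, lower without overlap but not called (-0.30 ± 0.14, adjusted p 0.14). The 4 genes span 137.3 kb of chromosome 10 (89283694 to 89421001). So neighbours in this cluster differed in which comparison called them. IFIT1, IFIT2 and IFIT3 overlap LIPA on the other strand.

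The IFITM genes, membrane proteins that block viral fusion, share near-identical sequence, and IFITM1 lies within IFITM2 in the annotation, so how their reads were divided is uncertain. IFITM2 lay at 8.25, 8.22 and 8.39 in empty vector cells, 8.52, 8.35 and 8.33 with VAV1 and 8.80, 8.99 and 8.69 with saracatinib, with only the last group apart. With RAC1P29S it moved from 7.32, 7.46 and 7.27 to 8.27, 8.43 and 8.26, without overlap. The changes were 0.43 ± 0.10 for saracatinib (adjusted p 0.00463), 0.97 ± 0.11 for RAC1P29S (adjusted p 9.11e-05) and 0.11 ± 0.10 for VAV1 (adjusted p 0.391). IFITM3 rose with saracatinib by 0.54 ± 0.06 (adjusted p 7.81e-06). IFITM1 varied widely within groups, from 2.20 to 5.68 in VAV1 cells, and was not called.

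SAMD9, a restriction factor of poxviruses, and PLSCR1, a phospholipid scramblase with antiviral activity, rose with VAV1 and RAC1P29S and were not called with saracatinib. SAMD9 lay at 8.78, 9.14 and 8.91 in empty vector cells, 9.57, 9.61 and 9.62 with VAV1 and 9.64, 9.45 and 9.66 with saracatinib, and at 9.09, 9.02 and 9.28 and 9.53, 9.43 and 9.29 in controls and RAC1P29S cells. In both experiments the libraries of the overexpressing cells were all above their control. The changes were 0.66 ± 0.09 (adjusted p 7.53e-05) and 0.29 ± 0.09 (adjusted p 0.0406). PLSCR1 lay at 8.58, 8.80 and 8.65, 8.99, 9.05 and 8.96 and 8.99, 8.87 and 8.85 in the first experiment and at 8.68, 8.64 and 8.78 and 8.88, 8.97 and 9.05 in the second. Its changes were 0.32 ± 0.08 (adjusted p 0.00653) and 0.26 ± 0.08 (adjusted p 0.0393), again without overlap. CMPK2, a mitochondrial nucleotide kinase, fell with RAC1P29S by 0.67 (adjusted p 0.0224), and with VAV1 it had the like value of -0.68 ± 0.28, not called (adjusted p 0.0622). MX1 and MX2, GTPases that trap viral nucleocapsids, and SAMD9L were not called in any comparison. Their values with VAV1 were 0.25 ± 0.14, 0.04 ± 0.09 and 0.10 ± 0.21, and with saracatinib -0.27 ± 0.14, 0.04 ± 0.09 and 0.43 ± 0.21.

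In the ISG15 group, ISG15 itself, a ubiquitin-like modifier, stepped up through the first experiment. It lay at 6.41, 6.41 and 6.58 in empty vector cells, 6.97, 6.81 and 7.24 with VAV1 and 7.49, 7.69 and 7.31 with saracatinib. None of these groups overlapped. It rose with VAV1 by 0.54 ± 0.15 (adjusted p 0.0112), with saracatinib by 0.49 ± 0.15 (adjusted p 0.0223) and with RAC1P29S, from 5.94, 5.70 and 5.52 to 6.28, 6.62 and 6.68, by 0.80 ± 0.19 (adjusted p 0.00959). UBE2L6, the enzyme that conjugates ISG15, took another course. It lay at 9.77, 9.67 and 9.66, 9.56, 9.47 and 9.56 and 9.80, 9.88 and 9.78, with the VAV1 libraries lowest and the saracatinib libraries highest. The changes were -0.17 ± 0.07 with VAV1 (adjusted p 0.0476), 0.29 ± 0.07 with saracatinib (adjusted p 0.00317) and, from 9.03, 9.10 and 8.94 to 8.73, 8.68 and 8.69, -0.32 ± 0.08 with RAC1P29S (adjusted p 0.0114). HERC6 and TRIM25, ubiquitin ligases, rose with VAV1 by 0.73 ± 0.19 (adjusted p 0.00713) and 0.39 ± 0.09 (adjusted p 0.00387). USP18, which removes ISG15 and restrains the interferon receptor, rose with saracatinib by 0.35 ± 0.12 (adjusted p 0.0422). HERC5, the main ligase for ISG15, and TRIM21, a cytosolic antibody receptor, had 0.29 ± 0.17 and 0.23 ± 0.15 with VAV1, and only TRIM21 was called at all, between VAV1 with saracatinib and empty vector (0.55 ± 0.15, adjusted p 0.00905).

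DTX3L and PARP9, which act as a complex of a ubiquitin ligase and an ADP-ribosyltransferase, lie head to head on chromosome 3 with starts 339 bases apart on opposite strands, and PARP14 lies within the same 202.9 kb. DTX3L lay at 9.38, 9.55 and 9.40 in empty vector cells, 9.68, 9.61 and 9.73 with VAV1 and 9.91, 9.91 and 9.94 with saracatinib, rising at each step without overlap. With RAC1P29S it went from 8.86, 9.05 and 8.89 to 8.61, 8.70 and 8.72, a fall. The changes were 0.23 ± 0.07 (adjusted p 0.0144), 0.25 ± 0.07 (adjusted p 0.0108) and -0.25 ± 0.09 (adjusted p 0.0479). PARP9 lay at 8.66, 8.56 and 8.71, 8.46, 8.24 and 8.53 and 9.07, 9.23 and 9.16 in the first experiment and at 8.03, 7.83 and 8.08 and 7.52, 7.62 and 7.65 in the second. Here the VAV1 libraries were the 3 lowest of the first experiment. PARP9 rose with saracatinib by 0.75 ± 0.09 (adjusted p 3.51e-05) and fell with RAC1P29S by 0.38 (adjusted p 0.0267), while its VAV1 value of -0.24 ± 0.09 was not called (adjusted p 0.0569). PARP14 rose with saracatinib by 0.39 ± 0.07 (adjusted p 0.00104). The annotated genes of DTX3L and PARP9 overlap at their starts.

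Of the other members, IFI35, which forms a complex with NMI, followed ISG20. It lay at 9.42, 9.40 and 9.21 in empty vector cells, 8.45, 8.46 and 8.70 with VAV1 and 9.47, 9.66 and 9.49 with saracatinib. The VAV1 libraries were the 3 lowest. The changes were -0.81 ± 0.09 with VAV1 (adjusted p 1.19e-05), 1.001 ± 0.09 with saracatinib (adjusted p 2.21e-06) and, from 8.56, 8.78 and 8.61 to 7.88, 7.82 and 7.78, -0.82 ± 0.10 with RAC1P29S (adjusted p 0.000132). IFI44 rose with VAV1, from 7.58, 8.20 and 7.93 to 8.94, 8.83 and 8.73, and stood at 8.65, 8.65 and 8.59 with saracatinib. It also rose with RAC1P29S, from 8.20, 7.98 and 8.24 to 8.88, 8.80 and 8.74. The changes were 0.93 ± 0.13 (adjusted p 7.36e-05) and 0.66 ± 0.10 (adjusted p 0.000613), and groups did not overlap in either. Its neighbour IFI44L rose with VAV1 by 1.09 ± 0.29 (adjusted p 0.00826). IFI6, a mitochondrial protein that opposes apoptosis, and LGALS3BP, a secreted glycoprotein, rose with saracatinib by 0.53 ± 0.13 and 0.29 ± 0.06 (adjusted p 0.00495 and 0.00104). RTP4, a chaperone of membrane receptors, fell with RAC1P29S by 1.25 (adjusted p 0.0499), or by 0.51 with a pseudocount of 16. XAF1 and SP110 were not called in any comparison, with 0.12 ± 0.32 and 0.23 ± 0.23 for VAV1.

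**Figure D3:**
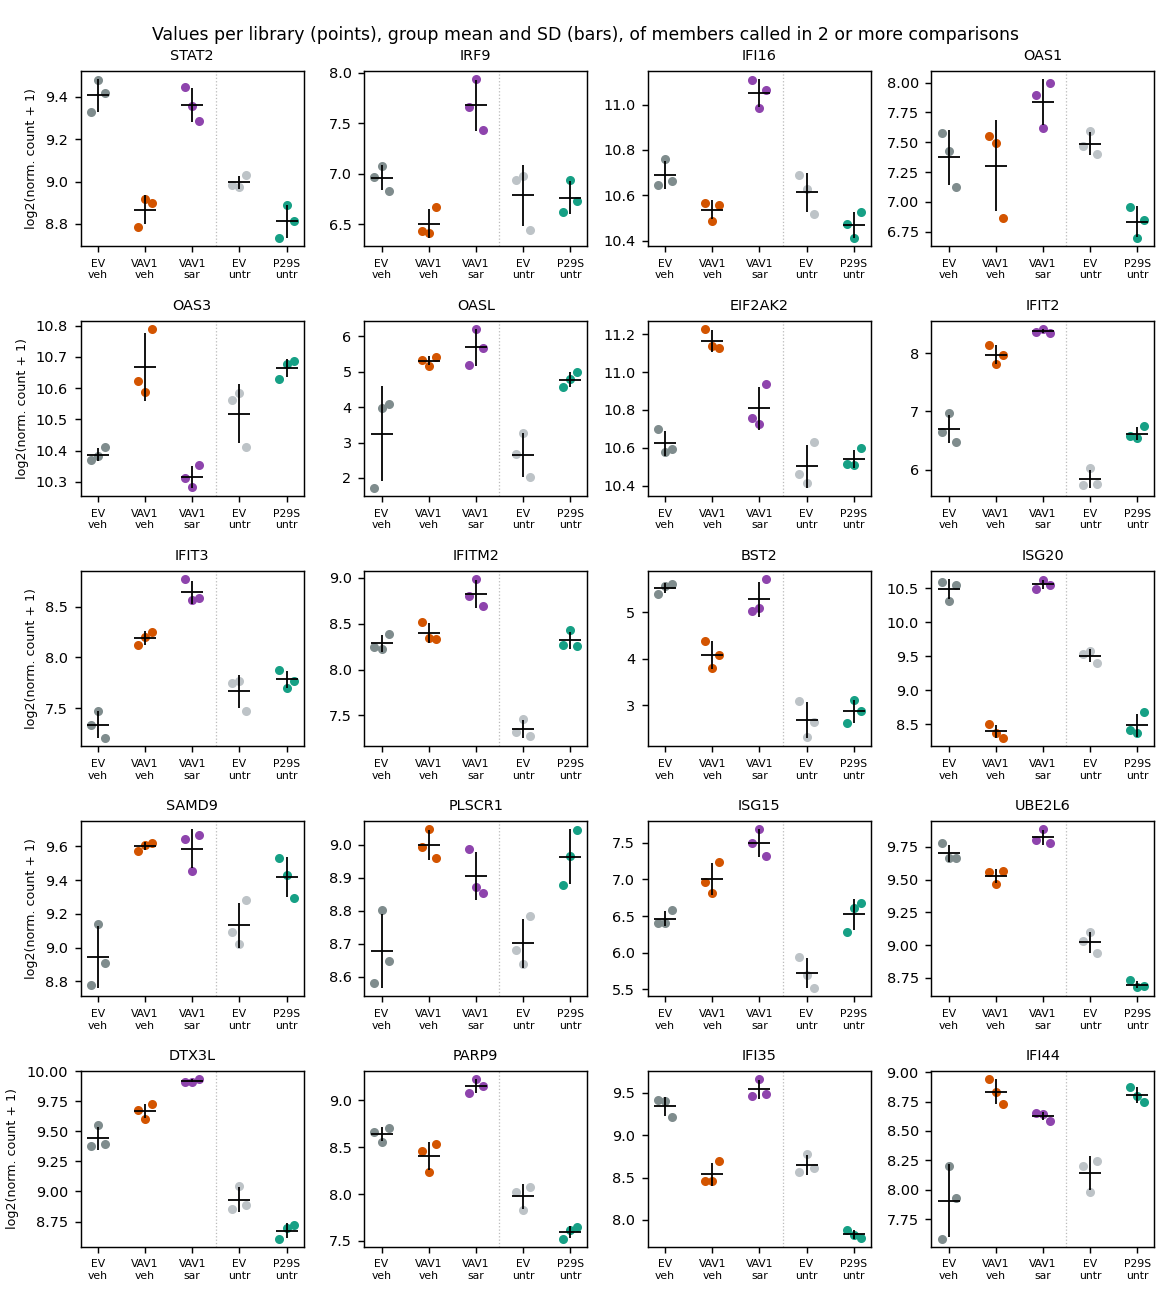
log2(normalized count + 1) (y axis, its own range in each panel) of 20 members called in at least 2 of the VAV1, saracatinib and RAC1P29S comparisons, in each of 15 libraries (points), with group mean (horizontal line) and SD (vertical bar); EV, empty vector; veh, vehicle; sar, saracatinib; untr, untreated; the dotted line parts the 2 experiments, each scaled by itself. The share of all genes called that often was not counted, so the number of panels only reflects the rule for showing genes. ISG20, BST2, IFI35, STAT2, UBE2L6, IRF9, IFI16 and PARP9 are lowest in VAV1 vehicle libraries within the first experiment, whereas IFIT2, IFIT3, ISG15 and DTX3L step up across its 3 groups.

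The VAV1 and RAC1P29S comparisons share no library and were set against each other. Of the 17 members higher with VAV1, 6 were also higher with RAC1P29S (35.3%), which were 6 of the 7 higher with RAC1P29S (85.7%): OASL, IFIT2, SAMD9, PLSCR1, ISG15 and IFI44. Of the 7 lower with VAV1 that were tested in both experiments, 3 were also lower with RAC1P29S (42.9%), which were 3 of 8 there (37.5%): ISG20, UBE2L6 and IFI35. Over the 13810 genes tested in both, the shares for higher calls were 46% of 3271 and 69.1% of 2179, and for lower calls 49.8% of 2833 and 65.6% of 2151. DTX3L was called in opposite directions, 1 of the 17 members higher with VAV1, against 90 of 3271 over all genes. Tested directly, the effect of VAV1 was above that of RAC1P29S for 5 of 48 members (10.4%), against 8.14% of all genes, and below it for 3 (6.25%), against 7.70%, together 8 against 15.8%. Above were IFIT3 by 0.74 ± 0.15 (adjusted p 0.00352), IFIT5 by 0.73 ± 0.11 (adjusted p 0.000196), IRF1 by 0.57 ± 0.15 (adjusted p 0.0164), EIF2AK2 by 0.50 ± 0.09 (adjusted p 0.00156) and DTX3L by 0.48 ± 0.10 (adjusted p 0.00358). Below were ISG20 at -1.07 ± 0.13 (adjusted p 3.06e-05), IFITM2 at -0.85 ± 0.14 (adjusted p 0.000636) and STAT2 at -0.36 ± 0.10 (adjusted p 0.0247). For OASL the difference was -0.07 ± 0.71 (adjusted p 0.963) and for IFI35 0.02 ± 0.13 (adjusted p 0.957). The first experiment used vehicle and the second no treatment. A shift shared by both groups of an experiment cancels, since each effect was taken within 1 experiment. A transgene effect that depends on vehicle or experiment cannot be told apart from a difference between the transgenes. With single libraries left out, STAT2 lost its call without empty vector 2 or 3, VAV1 vehicle 1 or RAC1P29S 2 (adjusted p up to 0.0638).

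**Figure D4:**
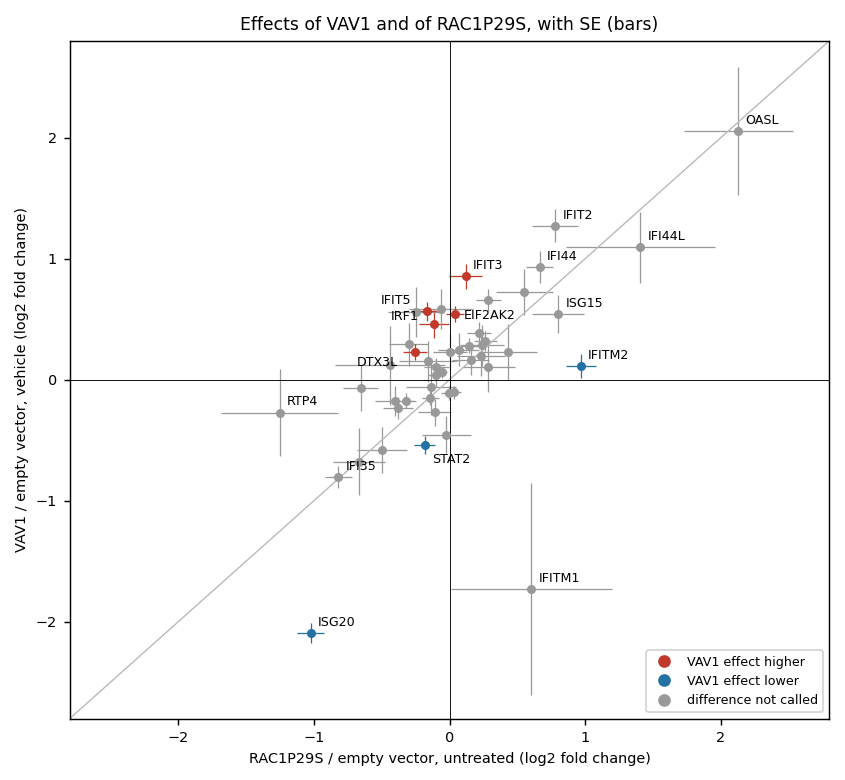
log2 fold change with VAV1 (y axis) against that with RAC1P29S (x axis) for the 48 interferon-stimulated genes tested in both experiments; bars are SE, the grey line marks equal effects, and colour marks members whose difference limma called. ISG20 and IFITM2 lie farthest below the line among the called differences, at -1.07 and -0.85, and IFIT3 and IFIT5 farthest above it, at 0.74 and 0.73.

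Other genes of the pathway were taken from lists chosen by function. Their counts are to be read against the shares of all tested genes called higher and lower, 23.6% and 20.1% with VAV1, 18.3% and 19.1% with saracatinib, 22.4% and 21.0% for both against empty vector, and 15.6% and 15.5% with RAC1P29S. Of 10 interferon ligands IFNE alone was listed, at 1.93 to 3.44 over the 15 libraries, too low to test. Among 9 receptors and kinases, limma called 3 lower with VAV1, 1 higher with saracatinib, 2 higher and 3 lower for VAV1 with saracatinib against empty vector, and 2 lower with RAC1P29S, with no call in the other directions. IFNGR2, a chain of the interferon gamma receptor, changed by -0.74 ± 0.08 with VAV1 (adjusted p 4.79e-06) and -0.74 ± 0.07 with RAC1P29S (adjusted p 3.33e-05). IFNAR2, of the type I receptor, changed by -0.50 ± 0.13 (adjusted p 0.00721) and -0.77 ± 0.15 (adjusted p 0.00351). Thus a chain of the interferon gamma receptor and a chain of the type I receptor fell with both transgenes. Their partner chains did not both follow. IFNAR1 averaged 9.45 in empty vector cells and 9.53 with VAV1, and 9.34 in untreated controls and 9.44 with RAC1P29S. In the same order IFNGR1 averaged 7.73, 7.79, 7.94 and 7.70. Of 9 tested adaptors and kinases behind the sensors, 1 was higher and 3 lower with VAV1, 4 and 1 with saracatinib and 2 and 2 with RAC1P29S, and 4 were higher for both against empty vector. TMEM173, which encodes the adaptor STING, changed by -1.12 ± 0.09 with VAV1 (adjusted p 3.95e-07), 1.07 ± 0.09 with saracatinib (adjusted p 1.08e-06) and -0.31 ± 0.11 with RAC1P29S (adjusted p 0.0483). It lay at 9.23, 9.16 and 9.05 in empty vector cells, 7.996, 8.16 and 7.92 with VAV1 and 9.15, 9.14 and 8.98 with saracatinib. AIM2, a DNA sensor of the inflammasome, moved the same way, by -1.01 ± 0.20, 1.60 ± 0.20 and -1.40 ± 0.12 in that order, with adjusted p 0.00109, 3.39e-05 and 8.72e-06. TLR3, an endosomal sensor of double-stranded RNA, rose with saracatinib by 0.69 ± 0.11 (adjusted p 0.000397), and MAVS, the adaptor of RIG-I and MDA5, by 0.32 ± 0.06 (adjusted p 0.000839).

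Of 6 tested negative regulators of the pathway, 3 were higher with VAV1, 1 higher and 3 lower with saracatinib, 2 higher for both against empty vector, and 1 of 5 higher with RAC1P29S. SOCS3, an inhibitor of JAK kinases, rose with VAV1, saracatinib and RAC1P29S, by 0.27 ± 0.08, 0.33 ± 0.08 and 0.24 ± 0.08 (adjusted p 0.0145, 0.0061 and 0.0441). PTPN2, a phosphatase of JAK and STAT proteins, rose with VAV1 by 0.49 ± 0.09 (adjusted p 0.000416) and changed by -0.27 ± 0.09 with saracatinib (adjusted p 0.0256). Of the interferon gamma targets and chemokines, 2 of 9 tested were higher (22.2%, near that of all genes) and 3 lower with VAV1, 3 and 1 with saracatinib, 2 and 2 for both against empty vector, and 4 of 10 were lower with RAC1P29S. GBP2, a guanylate-binding GTPase, lay at 8.42, 8.51 and 8.44 in empty vector cells, 5.49, 5.80 and 5.98 with VAV1 and 7.41, 7.19 and 7.29 with saracatinib. It changed by -2.70 ± 0.14 with VAV1 (adjusted p 4.96e-09), 1.54 ± 0.14 with saracatinib (adjusted p 2.20e-06) and -1.67 ± 0.13 with RAC1P29S (adjusted p 7.06e-06). Among 19 further interferon-stimulated genes outside the 51, 5 were higher and 4 lower with VAV1, 4 and 3 with saracatinib, 7 and 1 for both against empty vector and 4 and 2 with RAC1P29S. With saracatinib these were 21.1% and 15.8%, near the shares of all genes. NMI, the partner of IFI35, rose with VAV1 by 0.66 ± 0.11 (adjusted p 0.000329), whereas IFI35 fell. CNP, a phosphodiesterase, changed by -0.92 ± 0.04 with VAV1 (adjusted p 1.87e-09) and -0.71 ± 0.06 with RAC1P29S (adjusted p 8.71e-06). TRIM14, an adaptor of antiviral signalling, rose with VAV1 by 0.60 ± 0.07 and changed by -0.58 ± 0.07 with saracatinib (adjusted p 1.31e-05 and 2.46e-05).

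The calls were set beside the promoter motif. Of members with a promoter in the table, the response element core was found in 11 of 14 that were higher with VAV1 (78.6%), 2 of 7 that were lower (28.6%) and 12 of 19 not called (63.2%). With saracatinib the counts were 12 of 18 higher (66.7%), 2 of 3 lower and 11 of 19 not called (57.9%). For VAV1 with saracatinib against empty vector they were 18 of 24 higher (75%) and 7 of 16 not called (43.8%). With RAC1P29S they were 4 of 4 higher, 4 of 8 lower (50%) and 16 of 27 not called (59.3%). TTCNNNGAA was found in 3 of 14 members higher with VAV1 (21.4%) and 3 of 7 lower (42.9%). These shares describe the windows searched and were not tested.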

How the data were processed

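RNA of 15 A375 libraries in 5 groups of 3 was measured by sequencing (Illumina TruSeq, per the labels' protocols). The authors deposited log2 values, with 1 added to each normalized count before the log, made with kallisto and DESeq2 on GRCh38, per the submitters' processing notes; versions, settings and annotation are not given in the sources used here. The first experiment lists 16768 symbols and the second 16295, with 15703 in both, and each was scaled by itself. Samples were grouped by title.

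A gene was tested where 3 or more libraries had a normalized count of 10 or more (14410 and 14036 genes). The 9 vehicle and saracatinib libraries shared 1 limma 3.58.1 fit (R 4.3.3), the 6 untreated ones had their own, and all 15 entered the fit for the difference of effects. Each fit had 1 mean per group and empirical Bayes with trend and robust estimation. Tests were two-sided with Benjamini-Hochberg adjustment over all tested genes, and calls had an adjusted p under 0.05. An exact permutation test of 3 against 3 cannot go below 0.1 and was not used. Values after ± are SE. The value of 1 added before the log understates changes of low genes. Without counts, no counting interval is given.

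Replicate numbers did not pair libraries: residual correlations of 12 same-numbered pairs were -0.0547 to 0.0125. The scripts were tested on simulated data. Members, roles and pathway lists (receptors, adaptors, negative regulators, interferon gamma targets, further interferon-stimulated genes and cell type markers) were chosen with earlier results of these data known. All members are accounted for. Up to 12 called members per direction and comparison, all 5 transcription factors and up to 4 genes per pathway list qualified to be named by size or adjusted p, and members called in at least 2 of the VAV1, saracatinib and RAC1P29S comparisons are given with their value in every library. Gene positions come from GENCODE release 29 and promoters from RefSeq. Alternatives were other scalings, quantile normalization, other filters, a pseudocount of 16, fits of the compared groups alone, a replicate block and leaving out each library. Some genes are not reported here.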

Additional observations from a re-analysis of the deposited data

Results flagged for a closer look

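For 8 of 48 members the effect of VAV1 differed from that of RAC1P29S in a test of the difference itself (limma, 15 libraries, adjusted p under 0.05 over 13810 genes). Of all those genes 2188 were called (15.8%), so the members differed about as often as any gene. The VAV1 effect was higher on the log2 scale for IFIT3 by 0.74 ± 0.15, IFIT5 by 0.73 ± 0.11, IRF1 by 0.57 ± 0.15, EIF2AK2 by 0.50 ± 0.09 and DTX3L by 0.48 ± 0.10. For ISG20 the difference was -1.07 ± 0.13, for IFITM2 -0.85 ± 0.14 and for STAT2 -0.36 ± 0.10. DTX3L was the member of these called in opposite directions, at 0.23 ± 0.07 with VAV1 and -0.25 ± 0.09 with RAC1P29S. The latter call was lost without any of the 6 untreated libraries, and the VAV1 call without empty vector library 1 or 3 or VAV1 vehicle library 3. ISG20 fell in both, by 2.09 and by 1.02. IFITM2 rose with RAC1P29S by 0.97 ± 0.11, against 0.11 ± 0.10 with VAV1, and its reads may be shared with near-identical genes. The experiments differ in vehicle treatment as well as in transgene. Shifts shared by both groups of an experiment cancel, but a transgene effect that depends on vehicle or experiment cannot be told apart from a difference between the transgenes.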

How the results depend on the processing

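Over all alternatives, the calls held for 17 of 25 members with VAV1, 18 of 24 with saracatinib, 21 of 29 for VAV1 with saracatinib against empty vector, 9 of 15 with RAC1P29S and 7 of 8 for the difference of effects, and none changed direction. Leaving out single libraries gave 14 to 17 members higher and 6 to 7 lower with VAV1, 17 to 21 and 2 to 3 with saracatinib, 23 to 30 and 0 to 1 for VAV1 with saracatinib, 4 to 7 and 4 to 7 with RAC1P29S, and 5 to 7 and 2 to 3 for the difference. Members lower with RAC1P29S numbered 4 without control library 1, 4 without RAC1P29S library 1 and 5 without RAC1P29S library 3, and members higher numbered 4 without RAC1P29S library 2. Over all genes these fits called 5382 to 6249, 4552 to 5460, 5321 to 6224, 3309 to 4105 and 1695 to 2168 in the same order. The other settings gave 15 to 17, 18 to 21, 26 to 29, 5 to 8 and 5 members higher, and 6 to 10, 2 to 3, 0, 6 to 8 and 2 to 4 lower. With a replicate block, 16 members were higher and 6 lower with VAV1 (5951 genes called), 20 and 3 with saracatinib (5061), 28 and 0 for VAV1 with saracatinib (5940), 5 and 6 with RAC1P29S (3888) and 5 and 2 for the difference (1746). A library correlated best with its own number in 1 of 24 cases. The block ended the calls of DDX60, IFI16 and UBE2L6 with VAV1, USP18 with saracatinib, PLSCR1 for VAV1 with saracatinib, DTX3L, PLSCR1, RTP4 and SAMD9 with RAC1P29S and STAT2 for the difference. Quantile normalization ended the saracatinib call of ADAR, at -0.04 (adjusted p 0.477), and those of IFIT2, OAS1 and USP18, the VAV1 call of IRF9, those of DDX58, IFI44L and PLSCR1 for VAV1 with saracatinib and that of DTX3L with RAC1P29S. With a pseudocount of 16 the VAV1 value of OASL was 1.06, of BST2 -0.93 and of IFI44L 0.72, the RAC1P29S value of OASL 0.98 and of RTP4 -0.51, the saracatinib value of BST2 0.75 and the values for VAV1 with saracatinib of OASL 1.36 and IFI44L 0.52, all still called. Depth limits the low members, RSAD2, IFI27, BST2, RTP4 and OASL.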

Other observations

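The empty vector controls of the 2 experiments, with vehicle and untreated, are given side by side, each scaled by itself, with no test between them. ISG20 lay at 10.60, 10.31 and 10.55 with vehicle and 9.54, 9.58 and 9.40 untreated. BST2 lay at 5.41, 5.58 and 5.62 and 3.10, 2.31 and 2.64, SAMD9L, a paralogue of SAMD9, at 7.59, 7.10 and 7.66 and 6.33, 6.59 and 6.08, and IRF7 at 5.57, 4.94 and 5.37 and 6.39, 6.13 and 6.17.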
